A study of Mus musculus with 6 samples.

Results

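The let-7 and miR-98 family was followed in the livers of mice treated with carbon tetrachloride (CCl4). Members were chosen by name, as the mature 5′ miRNAs let-7a to let-7g, let-7i and miR-98. The rule used no measured value, but earlier results of these data were known when the members were chosen. It gave 9 members among the 1247 mouse miRNAs on the array, and all 9 were detected on all 6 arrays. Male C57BL/6 mice were injected intraperitoneally with CCl4 at 0.6 mL/kg in corn oil (n = 3) or with an equal volume of corn oil alone (n = 3), 2 times per week for 10 weeks from an age of 7 weeks. CCl4 is a solvent toxic to hepatocytes, and its repeated injection is a standard way to produce liver fibrosis. Total RNA from each liver was labeled with Cy3 and hybridized to its own array. No genetic change was made in either group, and the labels do not give the part of the liver that was sampled.

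miRNAs are short RNAs that guide silencing complexes to messenger RNAs, and the bases of the seed near their 5′ end set most of the choice of targets. The let-7 miRNAs were found as regulators of developmental timing in worms and are abundant in differentiated adult tissues, the liver included, where they restrain growth-promoting genes such as Ras and Hmga2. The RNA-binding protein Lin28 blocks their maturation in embryonic cells, and one mature let-7 sequence can come from more than one gene.

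The mature sequences are shown because the members are read by separate probes although they are nearly alike. They were taken from RefSeq (assembly GRCm38.p6), in which all 9 members were matched, and run 5′ to 3′ with the seed, bases 2 to 8, in capitals. The prefix mmu stands for mouse and is left out elsewhere.
mmu-let-7a-5p: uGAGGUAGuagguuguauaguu
mmu-let-7b-5p: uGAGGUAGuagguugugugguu
mmu-let-7c-5p: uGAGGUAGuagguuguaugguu
mmu-let-7d-5p: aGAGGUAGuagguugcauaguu
mmu-let-7e-5p: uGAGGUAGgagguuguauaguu
mmu-let-7f-5p: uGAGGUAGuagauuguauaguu
mmu-let-7g-5p: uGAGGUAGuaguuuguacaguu
mmu-let-7i-5p: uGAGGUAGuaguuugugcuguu
mmu-miR-98-5p: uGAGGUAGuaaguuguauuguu

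All 9 members shared the seed GAGGUAG and the same base at 14 of 22 positions. Counted from 1 at the 5′ end and against let-7a, let-7b carried A17G and A19G, let-7c A19G alone, let-7d U1A and U16C, let-7e U9G alone, and let-7f G12A alone. let-7g carried G12U and U18C, let-7i G12U, A17G, U18C and A19U, and miR-98 G11A and A19U. Among the 36 pairs of members, 4 differed by 1 base and the most distant pair by 6. The seed was held by 11 mature mouse names in RefSeq, and those outside the family, let-7k and miR-1961, were detected on none of the arrays. With sequences this close, signal shared between probes of different members cannot be told apart from signal of the member itself in these files.

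The genes lie at several places of the genome (GRCm38.p6), some together with miRNAs of other seeds. The let-7e sequence lies at chr17:17830366-17830387 on the plus strand, in Mirlet7e, which stands between Mir99b and Mir125a inside the protein-coding gene Spaca6. The let-7i sequence lies at chr10:122985698-122985719 on the minus strand, with no miRNA gene listed as its neighbour. let-7g (chr9:106178846-106178867, plus strand) lies within Wdr82, and miR-98 (chrX:151913229-151913250, plus strand) lies with Mirlet7f-2 within Huwe1. Mirlet7a-1, Mirlet7f-1 and Mirlet7d stand together on chromosome 13, and Mirlet7b with Mirlet7c-2 on chromosome 15 inside the noncoding Lncppara. Mirlet7c-1 has Mir99a and Mir125b-2 as neighbours on chromosome 16, and Mirlet7a-2 has Mir100 and Mir125b-1 within Mir100hg on chromosome 9. let-7a, let-7c and let-7f each have 2 genes with the same mature sequence, so their signals could not be assigned to a gene.

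The arrays detected 186 to 193 miRNAs in the corn oil group and 245, 227 and 334 on CCl4 replicates 1, 2 and 3. The third CCl4 array stood apart, with a rank correlation of 0.856 to 0.860 with the other CCl4 arrays, which correlated at 0.979 with each other. Its summed signal of 3 hepatocyte markers, miR-122-5p among them, was 2458, against 14521 and 17268 on the other CCl4 arrays and 18529.8 to 20385 with corn oil. The sum of 6 mesenchymal markers was 67.2 to 109 with corn oil and 643, 255 and 1236 with CCl4, and that of 6 immune markers 77.7 to 91.0 and 475, 346 and 457. Of 4 endocrine and neural markers, miR-7a-5p was the only one detected outside this array, and their sum was 9.65 to 13.5 on the other arrays and 1759.5 on it. miR-9-5p was undetected on all arrays. The sum of the 2 red cell markers found by name was 466 to 754 with corn oil and 730, 315 and 2135 with CCl4. The 3 muscle markers were undetected throughout. The endothelial markers were listed under names absent from the array, miR-126a-3p and miR-126a-5p, and were not summed. The array's miR-126-3p and miR-126-5p were detected on all 6 arrays. Their log2 changes (CCl4 minus corn oil) in the quantile normalized fit described below were 0.32 (SE 0.24) and -0.055 (SE 0.23). The CCl4 arrays filled row 1 and the corn oil arrays row 2 of 1 slide, so treatment and row cannot be told apart. The changes are therefore given with and without CCl4 replicate 3, and the part of these cell markers in the results was not tested.

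let-7i and let-7e were the members with higher signals on every CCl4 array by over 2-fold. The total signal of let-7i, the array software's background-subtracted sum over all spots of a miRNA, was 154, 142 and 165 in the corn oil livers and 549.5, 335 and 1581 in the CCl4 livers. All CCl4 values lay above all corn oil values, with the lowest CCl4 value on replicate 2. The corn oil mean was 154 ± 11.7 (SD, n = 3), and the CCl4 arrays stood at 3.58, 2.18 and 10.3 times this mean. In bulk tissue, a change in the number of cells of one type cannot be told apart from a change in the RNA per cell.

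The total signal of let-7e was 55.3, 41.8 and 62.9 in the corn oil livers and 179.9, 125 and 1349 in the CCl4 livers. The groups did not overlap here either, and CCl4 replicate 3 was far above the rest. Against the corn oil mean of 53.3 ± 10.7 (SD, n = 3), the CCl4 arrays were 3.37, 2.35 and 25.3 times as bright. The spread of the corn oil signals of let-7e was 19.98% of their mean (SD), the widest in the family, where the other members lay between 4.26% and 9.24%.

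let-7a, let-7b, let-7c and let-7f were at 1.04 to 1.35 times the corn oil mean on CCl4 replicates 1 and 2. let-7a gave 1193, 1049.5 and 1245 with corn oil and 1400.2, 1215 and 6945 with CCl4. The groups of let-7a overlapped, since CCl4 replicate 2 was below corn oil replicate 3. let-7c gave 938, 829.8 and 998 with corn oil and 1245, 989 and 10584.5 with CCl4. For let-7c too, CCl4 replicate 2 lay inside the corn oil range.

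let-7b gave 858, 813 and 885 with corn oil and 1117, 886 and 7974 with CCl4. Its groups did not overlap, but CCl4 replicate 2 cleared the corn oil values by less than their SD of 36.3. let-7f gave 1096, 949 and 1099.9 with corn oil and 1239.6, 1109 and 4942 with CCl4. The margin of let-7f at CCl4 replicate 2 was likewise below the corn oil SD, 85.7.

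let-7d gave 403, 345 and 402 with corn oil and 524, 454 and 2568.5 with CCl4. miR-98 gave 17.5, 15.5 and 17.6 with corn oil and 26.5, 21.4 and 168 with CCl4. Neither member's groups overlapped, and CCl4 replicate 3 was the highest of both. let-7g, the member within Wdr82, gave 765, 679 and 744 with corn oil and 689, 714 and 2912 with CCl4. CCl4 replicates 1 and 2 of let-7g were inside the corn oil range, and it was the one member with a ratio under 1 on these arrays, 0.945 and 0.979 of the corn oil mean.

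**Figure D1:**
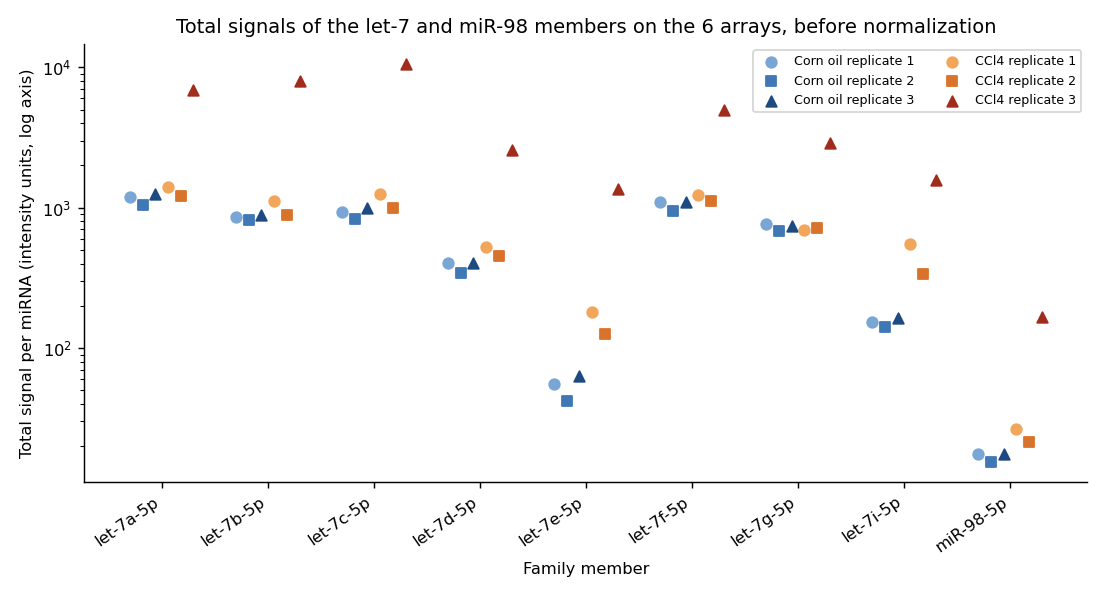
Total signal of each family member (intensity units on a log axis) on the 3 corn oil arrays (blue) and the 3 CCl4 arrays (orange to red), before any normalization. CCl4 replicate 3 is the highest point of every member, and let-7e and let-7i are the members whose other CCl4 points also stand over 2 times above the corn oil mean.

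Higher signals with CCl4 were not limited to the family, but not every miRNA shared them. Detected signals added up to 167865 to 177198 per corn oil array. The same sums were 177351, 174365 and 316413 for CCl4 replicates 1, 2 and 3. Of 166 tested miRNAs, 105 were above all corn oil values on every CCl4 array and 4 below, miR-122-5p among the latter. Whether array brightness or RNA content set this pattern was not tested. Over the 166 miRNAs detected on all 6 arrays, the median ratio to the corn oil mean was 1.45, 1.26 and 4.14 on CCl4 replicates 1, 2 and 3. The medians over the 9 members were 1.35, 1.07 and 9.36. Signals over 2 times the corn oil mean were found for 2 members on replicate 1, 2 on replicate 2 and 9 on replicate 3, beside 30.7%, 17.5% and 70.5% of all tested miRNAs. Total signals were separate and higher with CCl4 for 6 of 9 members, and for 63.3% of the 166 miRNAs.

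On each array all 40 spots of every member but miR-98 were flagged well above background. For miR-98 the share was 75% to 92.5% with corn oil and 92.5% to 100% with CCl4. The signals of each member came from 2 probes of unequal brightness, and the log2 changes of the 2 probes of a member differed by 0.0054 to 0.13. The probes of let-7i gave 2.16 and 2.09 (log2 change of probe signals without normalization). let-7e, with the widest gap between its probes, gave 2.66 and 2.53. On the other arrays, with CCl4 replicate 3 left out, the probes of let-7i gave 1.53 and 1.46, and those of let-7e 1.61 and 1.47.

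After quantile normalization of the log2 signals, let-7i alone of the 9 members was called by limma. A call was an adjusted p (Benjamini-Hochberg) below 0.05 together with a change of more than 2-fold. The fit covered the 166 miRNAs, of which 12% were called in either direction and 7.23% as higher with CCl4. The normalized log2 signal of let-7i rose from 7.85 ± 0.06 (SD, n = 3) with corn oil to 8.91 ± 0.30 (SD, n = 3) with CCl4, a log2 change of 1.07 (SE 0.19, limma adjusted p = 0.022). The values of CCl4 replicates 1, 2 and 3 were 9.23, 8.63 and 8.87. Without CCl4 replicate 3 the change stayed at 1.07 (SE 0.21, limma adjusted p = 0.021), where 16.9% of the 166 miRNAs were called and 9.64% called higher. Without CCl4 replicate 1 it was 0.94, and without any one corn oil array 1.03 to 1.07, and none of these 4 fits called it.

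let-7e had a change of 1.09 (SE 0.51, limma adjusted p = 0.21), which did not pass the test. Its normalized values were 6.57, 6.30 and 6.65 with corn oil and 7.26, 6.84 and 8.71 with CCl4. They did not overlap, as was found for 2 of 9 members, let-7e and let-7i, and 14.5% of all tested miRNAs. With CCl4 replicate 3 left out, let-7e gave 0.55 (SE 0.19, limma adjusted p = 0.084), below 2-fold, and 23.5% of the tested miRNAs then lay wholly above corn oil.

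None of the other 7 members was called in either fit. let-7c gave a log2 change of 0.96 (SE 0.76, limma adjusted p = 0.43) with all arrays and 0.09 without CCl4 replicate 3. let-7b gave 0.78 (SE 0.61, limma adjusted p = 0.43) and 0.09. let-7a gave 0.38 (SE 0.41, limma adjusted p = 0.55) and -0.064. CCl4 replicate 3 thus decided the size of these 3 estimates, and leaving it out also moved those of let-7e and of the members described next. Quantile normalization sets equal ranks to equal values, and let-7a, let-7b and let-7d held the same rank on all corn oil arrays, so their corn oil SD was 0 and the spread of these members came from the CCl4 arrays.

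The changes of let-7d, let-7f, let-7g and miR-98 lay between -0.05 and 0.16 with all arrays, at limma adjusted p of 0.65 to 0.91. For let-7g the processing moved this value, to -0.52 under 75th percentile scaling, -1.02 with the median spot and -0.96 after normexp background correction (limma adjusted p = 0.18, 0.096 and 0.076). All CCl4 values of let-7g lay below corn oil in these settings, as was found for 50, 33 and 33 of the 166 miRNAs. In the fit without CCl4 replicate 3, miR-98 had a change of -0.30 (SE 0.05, limma adjusted p = 0.016), which passed the p but not the fold, while 52.4% of the 166 miRNAs passed that p. In the same fit let-7g gave -0.27 (SE 0.13, limma adjusted p = 0.17), let-7d -0.067 and let-7f -0.030. The median change over the 9 members was 0.38 with all arrays, beside -0.14 over the 166 miRNAs. Without CCl4 replicate 3 these medians were -0.030 and -0.12, so the positive median of the family depended on that array.

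**Figure D2:**
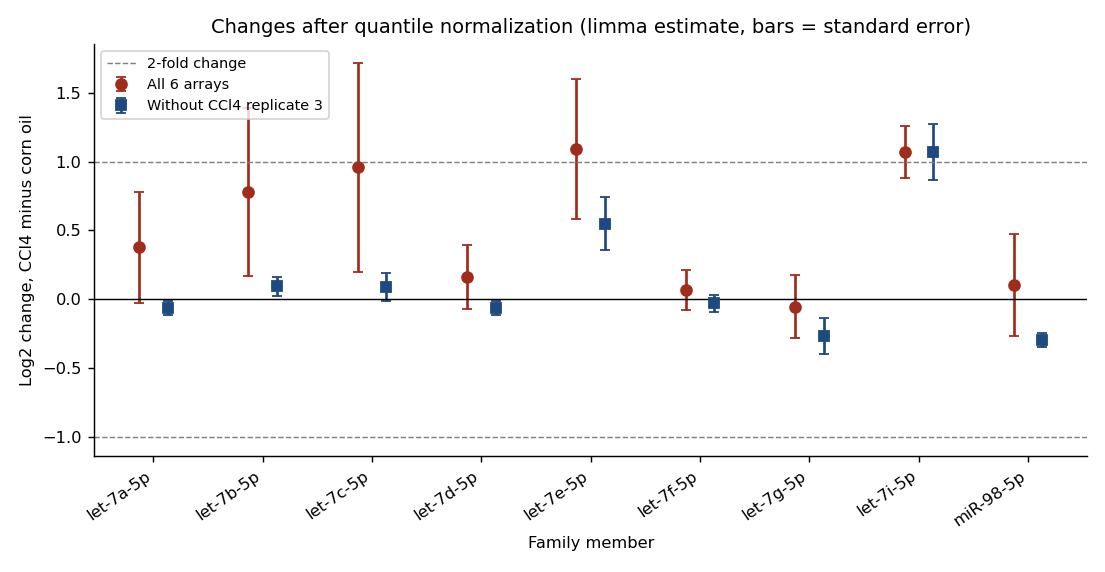
Log2 change of each member (CCl4 minus corn oil, quantile normalized, points with standard errors from limma) with all 6 arrays (red circles) and without CCl4 replicate 3 (blue squares). let-7i stands at 1.07 in both fits, while let-7a, let-7b and let-7c fall from 0.38, 0.78 and 0.96 to -0.064, 0.09 and 0.09.

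The direction of the smaller changes followed the scaling of the arrays. Under scaling to the 75th percentile, let-7a, let-7d and let-7f changed sign to -0.18, -0.0040 and -0.30, and let-7i gave 0.96 (limma adjusted p = 0.037), just under 2-fold. Without any normalization the median of the 166 miRNAs shifted by 0.99, every member had a positive change (0.63 to 2.57), and none passed the test. In that case let-7e had the largest change of the family (2.57, limma adjusted p = 0.094), followed by let-7i (2.11, limma adjusted p = 0.058).

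The 75th percentile scaling without CCl4 replicate 3 separated the family in both directions. In it, 7 members passed an adjusted p of 0.05, as did 60.8% of the 166 miRNAs. let-7i (0.85, limma adjusted p = 0.0051) and let-7e (0.87, limma adjusted p = 0.0070) rose, and let-7a (-0.47), let-7b (-0.41), let-7c (-0.37), let-7f (-0.47) and let-7g (-0.69) fell, with limma adjusted p of 0.0077 to 0.027 for these 5. let-7d (-0.29) and miR-98 (-0.14) did not pass, at limma adjusted p of 0.061 and 0.27. Lower values with CCl4 at this adjusted p were found for 38.6% of the 166 miRNAs and higher ones for 22.3%, and no member changed by over 2-fold. Both this fit and the one without normalization and without CCl4 replicate 3 were chosen after seeing the data.

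**Figure D3:**
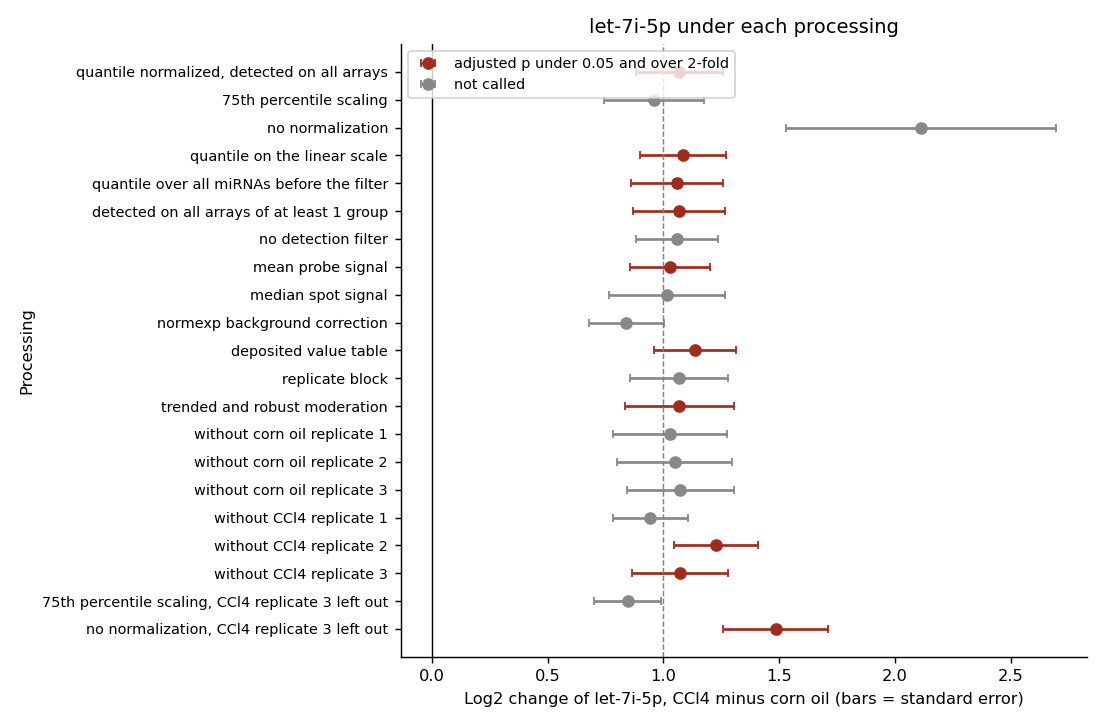
Log2 change of let-7i (CCl4 minus corn oil, bars are standard errors) under the reported processing (top) and 20 alternatives, in red where limma called it. The change was positive under all 20, between 0.84 and 2.11, and was called under 9 of them.

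The members were next compared with each other inside each array. Such a comparison is not changed by a single scaling factor per array, but quantile normalization can change it. For each member the mean log2 total signal of the other 8 members on the same array was subtracted, and the values of the groups were compared by an exact two-sided permutation test, 9 comparisons in all. With 3 livers in each group the smallest p this test can give is 0.1, so no member could pass 0.05. let-7e stood 1.35 higher relative to the other members, from -2.91, -3.14 and -2.75 with corn oil to -1.69, -1.93 and -1.13 with CCl4 (exact permutation p = 0.1). All CCl4 values of let-7e were above all of its corn oil values.

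let-7i stood 0.84 higher relative to the other members, at -1.25, -1.16 and -1.19 with corn oil and 0.12, -0.34 and -0.87 with CCl4 (exact permutation p = 0.1). Its groups did not overlap, and CCl4 replicate 3 was closest to the corn oil values. The opposite order was found for let-7e, whose CCl4 replicate 3 was farthest from corn oil.

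let-7g was lower relative to the other members by the widest margin, -0.83, at 1.36, 1.38 and 1.26 with corn oil and 0.49, 0.89 and 0.12 with CCl4 (exact permutation p = 0.1). let-7f (-0.58), let-7a (-0.44) and let-7d (-0.25) were lower on every CCl4 array than on every corn oil array, each at the same p. let-7b (-0.16, p = 0.4), let-7c (-0.013, p = 1) and miR-98 (0.081, p = 0.7) overlapped between groups in the exact permutation test. Each value also depends on the other 8 members. With their median in place of the mean, let-7a and let-7d turned to 0.072 and 0.34, and let-7b and let-7c to 0.32 and 0.45. All CCl4 values of let-7d then lay above corn oil (exact permutation p = 0.1), the reverse of its separation against the mean. The groups of let-7a overlapped (exact permutation p = 0.7). let-7f shrank to -0.045 and its groups overlapped (exact permutation p = 0.5), let-7g stood at -0.45, and miR-98 at 0.63 with no overlap (exact permutation p = 0.1). let-7i was at 0.63 with overlapping groups (exact permutation p = 0.4) when quantile normalized values were used. With the median spot, against the mean of the others, let-7a (-0.46) and let-7d (-0.048) overlapped between groups (exact permutation p = 0.4 and 0.8).

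Leaving out CCl4 replicate 3, let-7e (1.12) and let-7i (1.09) were above the corn oil range relative to the other members. let-7a, let-7b, let-7c, let-7d, let-7f and let-7g were all below it, and miR-98 (-0.014) was within it. The values in parentheses are differences of group means. For the members below the range these differences ran from -0.18 for let-7d to -0.64 for let-7g. With 2 against 3 livers the smallest p of the exact permutation test was 0.2.

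**Figure D4:**
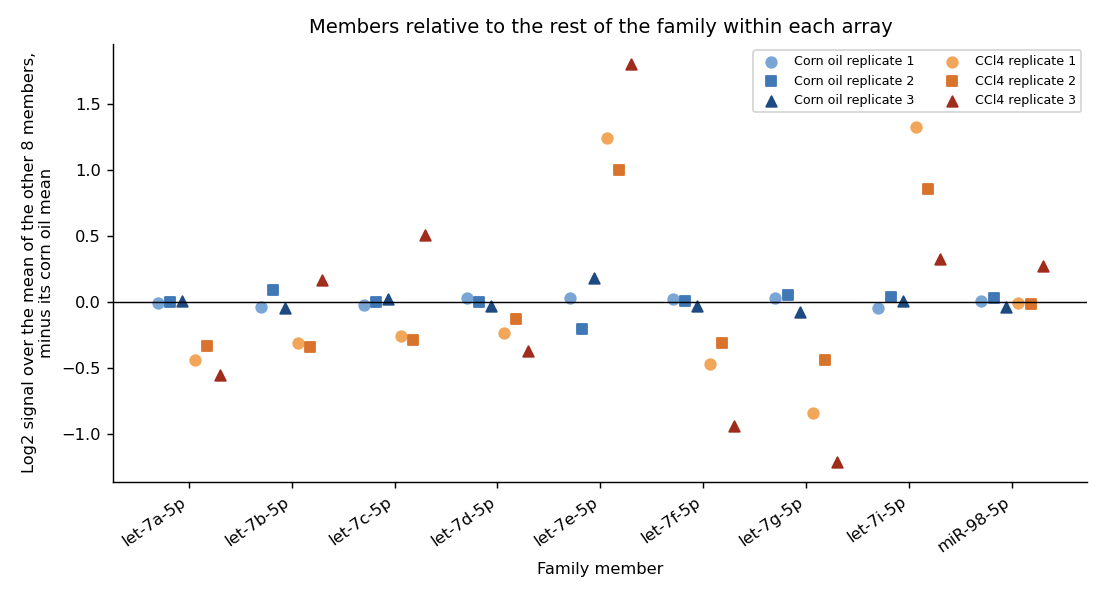
Log2 total signal of each member over the mean of the other 8 members on the same array, set to 0 at its corn oil mean, for each of the 6 arrays. The CCl4 points of let-7e and let-7i lie above all corn oil points and those of let-7a, let-7d, let-7f and let-7g below them.

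The miRNAs encoded beside let-7 genes were read from the same fit. They are miR-99a, miR-99b and miR-100, which share one seed, and miR-125a and miR-125b, which share another and are relatives of the worm timing miRNA lin-4. Their sequences are shown, with seeds in capitals, because both families stand next to a let-7 gene at several loci.
miR-99a-5p: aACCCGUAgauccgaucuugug
miR-99b-5p: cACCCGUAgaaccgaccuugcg
miR-100-5p: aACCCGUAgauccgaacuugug
miR-125a-5p: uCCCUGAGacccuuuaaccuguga
miR-125b-5p: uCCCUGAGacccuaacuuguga

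Of these 5 miRNAs, miR-99b was called higher and none lower, beside 7.23% of the 166 miRNAs called higher, with a median change of 0.88 over the list and -0.14 over the 166 miRNAs. miR-99b, the neighbour of let-7e, gave total signals of 6.57, 5.63 and 7.59 with corn oil and 36.9, 26.5 and 219.5 with CCl4. The groups did not overlap. On the corn oil arrays no more than 47.5% of these spots cleared background well, so its corn oil level is a bound. With all arrays, the mean of its normalized signal was at least 2.40-fold higher with CCl4. The call came from the fit of its normalized values without the bound (limma adjusted p = 0.030), and the bound itself was not tested. This bound sets the CCl4 mean of normalized values, 5.18, against a corn oil mean of 3.92 in which a dim array takes the lowest signal of any miRNA well above background. The CCl4 values behind that mean were 4.89, 4.64 and 6.02 on replicates 1, 2 and 3. CCl4 replicate 3 thus raised the bound, which does not hold for each array alone, and no bound was computed without that array. miR-99b was called without CCl4 replicate 3 as well (limma adjusted p = 0.0018), where 9.64% of the 166 miRNAs were called higher.

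miR-125a, on the other side of let-7e, gave 26.8, 20.1 and 27.6 with corn oil and 87.9, 66.04 and 556 with CCl4. Its groups did not overlap, and its change was 1.23 (SE 0.47, limma adjusted p = 0.16). In the fit of 5 arrays it was 0.68 (limma adjusted p = 0.023), under 2-fold. On CCl4 replicates 1, 2 and 3 the ratios to the corn oil mean were 3.54, 2.66 and 22.4 for miR-125a, beside 3.37, 2.35 and 25.3 for let-7e.

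After normalization, the miRNAs beside let-7c and let-7a did not stand apart in this way. miR-125b, which like let-7c and let-7a comes from 2 genes, gave 165, 156 and 209.6 with corn oil and 447, 255 and 2729.85 with CCl4. Its total signals did not overlap, but its normalized values did, and its change was 0.88 (SE 0.48, limma adjusted p = 0.27), or 0.39 without CCl4 replicate 3 (limma adjusted p = 0.28). The total signals of miR-99a and miR-100 were also higher with CCl4 without overlap, as were those of 63.3% of the 166 miRNAs. After normalization, miR-99a had a change of -0.23 (limma adjusted p = 0.70) and miR-100 of -0.0087 (limma adjusted p = 0.99). When CCl4 replicate 3 was left out, miR-99a gave -0.65 (limma adjusted p = 0.0020) and miR-100 gave -0.15.

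**Figure D5:**
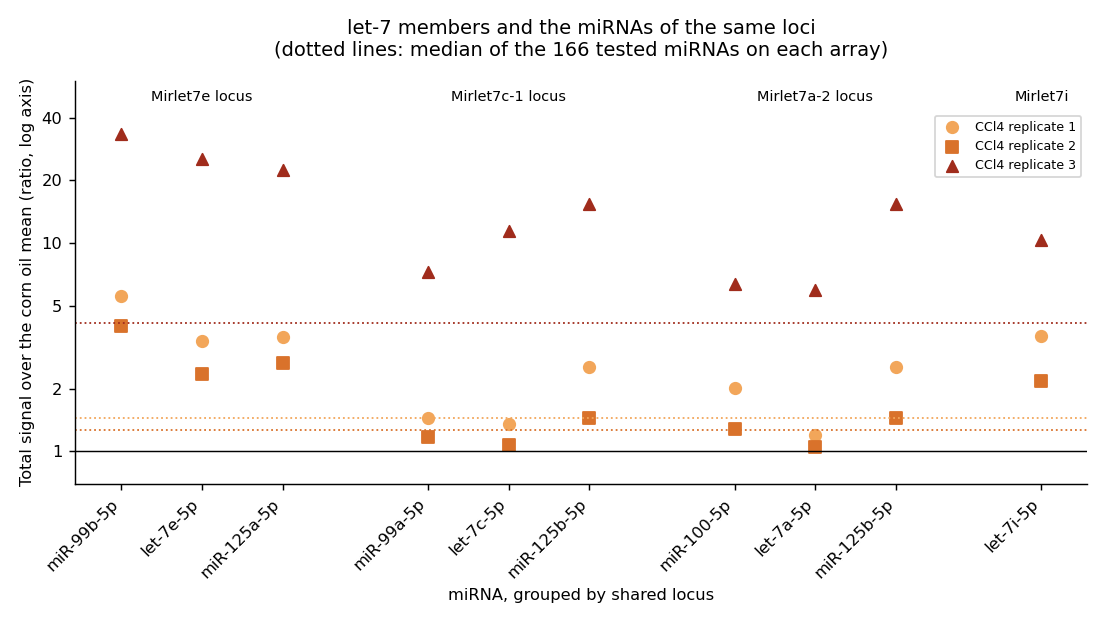
Total signal over the corn oil mean (log axis) on each CCl4 array for let-7e, let-7c, let-7a and let-7i and for the miRNAs of the same loci, with dotted lines at the median ratio of the 166 tested miRNAs on each array (1.45, 1.26 and 4.14). let-7e, miR-99b and miR-125a lie above 2 on all 3 CCl4 arrays, as does let-7i from another locus, and miR-125b is drawn at both of its loci.

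The strands opposite the mature members, most of which are degraded after processing, were near the detection limit. Of 12 such passenger strands 11 were on the array, none was detected on all 6 arrays, and 6 were detected on no array. let-7b-3p was detected on 2 CCl4 arrays and let-7f-1-3p on all 3, each also with corn oil. Mature miRNAs with a similar name or seed were mostly undetected. let-7j, let-7k and miR-202-5p were undetected on all arrays, and miR-202-3p, whose seed GAGGUAU differs from that of let-7 at its last base, was called lower with CCl4. Its total signals were 28.3, 24.4 and 28.1 with corn oil and 24.5, 22.02 and 36.2 with CCl4, and its normalized change was -1.29 (SE 0.22, limma adjusted p = 0.020). It was -1.03 without CCl4 replicate 3 (limma adjusted p = 0.0027), but 0.0037 with all arrays and no normalization.

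The pattern of let-7i over the 6 arrays was most like that of miR-5119, miR-342-3p, miR-199a-3p, miR-199a-5p and miR-3072-5p among the other 165 miRNAs. Their root mean square distances from let-7i, in normalized log2 signal centred on the corn oil mean, were 0.21, 0.25, 0.25, 0.26 and 0.31, where the median over all was 1.03. miR-199a-3p and miR-199a-5p are 2 of the 6 mesenchymal markers, miR-342-3p is known from leukocytes, and another mesenchymal marker, miR-143-3p, was near the family mean instead. On CCl4 replicates 1, 2 and 3 the centred values were 1.39, 0.79 and 1.03 for let-7i and 1.80, 0.99 and 1.23 for miR-199a-5p. The mean of the 9 members was most like miR-374c-5p, miR-5100, miR-29b-3p, miR-26a-5p and miR-143-3p, at distances of 0.14 to 0.22 against a median of 0.81. That mean was 0.20, 0.03 and 1.28 on CCl4 replicates 1, 2 and 3.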

How the data were processed

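Total RNA of 6 livers, 100 ng each, was measured on 1-colour Agilent mouse miRNA arrays. The authors extracted the deposited intensities with Feature Extraction 11.0.1.1, which subtracts background, sums the spots of a miRNA to a total signal, sets undetected miRNAs to 0.1 and does not normalize between arrays. The deposited value table holds quantile normalized intensities of 111 miRNAs, 8 of the 9 members among them. Its columns for corn oil replicates 1, 2 and 3 had the rank order of scanner arrays 2, 3 and 1, so it was used as an alternative only.

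The total signals of 166 miRNAs, those flagged as detected on every array, were log2 transformed and quantile normalized. The methods name a detection filter, quantile normalization and limma but not the place of the log2 step. The deposited table holds fewer miRNAs, and its changes equal those of quantile normalization before log2, an alternative here, for its members other than let-7e and let-7i. Treatment was the single term of the fit in limma 3.58.1 (R 4.3.3). A call needed a Benjamini-Hochberg adjusted p under 0.05 over the 166 and a fold change over 2. The script was tested on simulated data. Permutation tests used scipy 1.17.1, tables pandas 2.3.3 and numpy 2.4.6, and plots matplotlib 3.10.9, in Python 3.11.15. A bound replaced a level where no array of a group had over 50% of a miRNA's spots well above background.

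The members and lists were chosen with earlier results of these data known. All members, the miRNAs encoded beside them, passenger strands and near names were named, with the 5 nearest patterns for let-7i and for the family mean. Passenger strands of the neighbouring miRNAs were listed after values were seen. Alternatives changed the normalization, detection filter, signal per miRNA, background correction, deposited table, replicate number as a block, moderation and each array left out. RefSeq sequences are of GRCm38.p6, while the scanner files name another build. The number of arrays limits the precision.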

Additional observations from a re-analysis of the deposited data

Results flagged for a closer look

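Some strands that no comparison used were detected with CCl4 but on none of the corn oil arrays, which marked them for a closer look. The passenger strands let-7a-1-3p, let-7d-3p and let-7e-3p had total signals of 4.65, 3.82 and 3.43 on CCl4 replicate 3, the array that stood apart, and were detected on no other array. At most 15.0% of their spots were well above background there, so no fold is given. miR-99b-3p, from the locus of let-7e, had a total signal of 5.77 on the same array alone. miR-125a-3p, from that locus too, had total signals of 12.9, 8.11 and 12.4 on CCl4 replicates 1, 2 and 3, with 42.5%, 25.0% and 32.5% of its spots well above background. These values lie near the detection limit. Over the whole array too, more miRNAs were detected with CCl4, 245, 227 and 334 on replicates 1, 2 and 3 beside 186 to 193 with corn oil. The share of all miRNAs detected with CCl4 alone was not counted.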

How the results depend on the processing

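let-7i kept a positive change under all 20 alternatives but was called under 9, with limma adjusted p of 0.0048 to 0.27. It lost the call at 0.96 (75th percentile scaling), 2.11 (no normalization), 1.06 (no detection filter), 1.02 (median spot), 0.84 (normexp) and 0.85 (75th percentile scaling without CCl4 replicate 3, chosen after seeing the data), and the number of members called was then 0. The cause was not tested. With single arrays left out its change was 0.94 to 1.23, called in 2 of 6 fits (without CCl4 replicate 2 or 3), and 0 to 1 members were called. Without normalization and CCl4 replicate 3, again chosen after seeing the data, 2 members were called, let-7i and let-7e (1.51).

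Among all miRNAs the 20 calls became 32 of 215 (detection needed in a single group only), 6 of 1247 (no filter), 10 (median spot), 6 (normexp), 12 of the 111 deposited, 5 to 28 with single arrays left out (28 without CCl4 replicate 3, 21 without CCl4 replicate 2, 5 to 7 otherwise), and 41 without normalization and CCl4 replicate 3. Without normalization all 18 calls were higher with CCl4, against 12 of 20.

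Signs reversed at 75th percentile scaling for let-7a (-0.18), let-7d (-0.0040) and let-7f (-0.30), and with CCl4 replicate 3 left out of that scaling for let-7a (-0.47), let-7b (-0.41), let-7c (-0.37), let-7d (-0.29), let-7f (-0.47) and miR-98 (-0.14). They also reversed without normalization for let-7g (0.63), with quantiles over all miRNAs or no filter for miR-98 (-0.15 in each), and at the median spot (-0.24) and normexp (-0.20) for let-7f, whose 2 probes differ in brightness. With single arrays left out the changes spanned -0.064 to 0.60 (let-7a), -0.067 to 0.32 (let-7d), -0.030 to 0.15 (let-7f), -0.27 to 0.12 (let-7g) and -0.30 to 0.32 (miR-98). Relative to the family, the median of the others reversed let-7a (0.072), let-7b (0.32), let-7c (0.45) and let-7d (0.34, without overlap). Family-relative changes from quantile normalized values were reversed for let-7b (0.31), let-7c (0.51) and miR-98 (-0.45). With single arrays left out let-7c spanned -0.27 to 0.12 and miR-98 -0.014 to 0.13. let-7e, let-7f, let-7g and let-7i kept the sign of their family-relative change in each alternative, but the groups of let-7f overlapped with the median of the others (-0.045) and at the median spot (-0.40), and those of let-7i when quantile normalized (0.63). The change of let-7g was -1.02 at the median spot and -0.96 with normexp.

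The labels number the replicates in both groups, but same-numbered arrays did not deviate together (r of -0.18, 0.11 and 0.03). With the replicate block let-7i kept 1.07 (limma adjusted p = 0.090), 0 members and 6 miRNAs were called. Precision is limited by 3 arrays per group and, for miR-98 and the passenger strands, by signal near background.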
